A study of Mus musculus with 4 samples.

Results

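Interleukins and their receptors were 80 of the 17734 genes named on the array, measured by 92 of its 26423 probes. Members were all probes whose platform gene symbol starts with Il and a digit, together with the probes for Lif, Lifr, Il6st, Osm and Osmr. They covered 37 genes for ligands, 37 for receptor chains and 6 for antagonists, decoy receptors or binding proteins. The cells were 3T3-L1 preadipocytes, a mouse fibroblast-like line that turns into adipocytes when given an induction mixture. There were 2 samples with berberine, a plant alkaloid, at 13.47 µM added to the mixture, and 2 control samples with the mixture alone. That mixture, the same in both groups, combined insulin at 1 µg/ml with dexamethasone at 1 µM and isobutylmethylxanthine at 0.5 mM, and RNA was taken at 48 hours. Values below are quantile-normalized probe intensities, 1 array per sample, and log2 changes are berberine minus control from a limma fit over 26408 probes with a threshold of 0.05 on the adjusted p. The labels do not say whether samples came from separate cultures, so the spread behind the p-values is that between these arrays and may be technical.

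Interleukins are secreted proteins that cells use to signal inflammation and growth, and most act through receptors built from a ligand-specific chain and a chain shared by several ligands. Ligands of the Il6 family, Lif and Osm among them, share the signalling chain gp130, encoded by Il6st, which activates JAK kinases and STAT transcription factors. Ligands of the Il1 family use Il1r1 or related chains with the accessory protein Il1rap, which lead to NF-kB. In adipose tissue, Il6 is secreted by stromal cells as well as adipocytes, and several of these cytokines are known to act on adipocyte formation and on lipid storage. Dexamethasone, present in both groups here, is known to repress many inflammatory cytokine genes.

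Ligands and receptor chains differed in which way their probes were called. The split by role was added after the data were seen. The 25th percentile of each array, an intensity of 95.0 to 95.8, served as a floor, and 66 of the 92 probes were above it on both arrays of at least 1 group. That was 71.7% of the members, against 77.2% of all fitted probes. Of the 28 ligand probes above the floor, 12 were higher with berberine and 2 lower. Among the 34 receptor probes above it, 4 were higher and 15 lower. The higher ligand probes include Lif, and the lower receptor probes include the dimmer Lifr probe. Both passed the floor only through the group where they were high. Of all probes above the floor 54.4% were called (33.2% higher and 21.2% lower), and among members there 42.9% of the ligand probes and 11.8% of the receptor probes were higher, with 7.14% of the ligand and 44.1% of the receptor probes lower. The median log2 change was 0.48 for ligands and -0.18 for receptors, against 0.23 for all probes above the floor. The ligand count moved with the scaling: 3 ligand probes were called higher in the deposited values and 6 after scaling on the 75th percentile. Under each of the other scalings the ligand median was near that of all fitted probes. It was -0.02 beside -0.05 in the deposited values, 0.54 beside 0.52 after centring and 0.28 beside 0.26 on the 75th percentile. Without either berberine array 1 ligand probe was called higher. The receptor median was -0.50 in the deposited values and turned to 0.064 after centring, where that of all fitted probes was 0.52. The receptor count of lower probes was 13 to 14 under the other scalings, and 8 and 9 without berberine replicate 1 and 2.

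**Figure D1:**
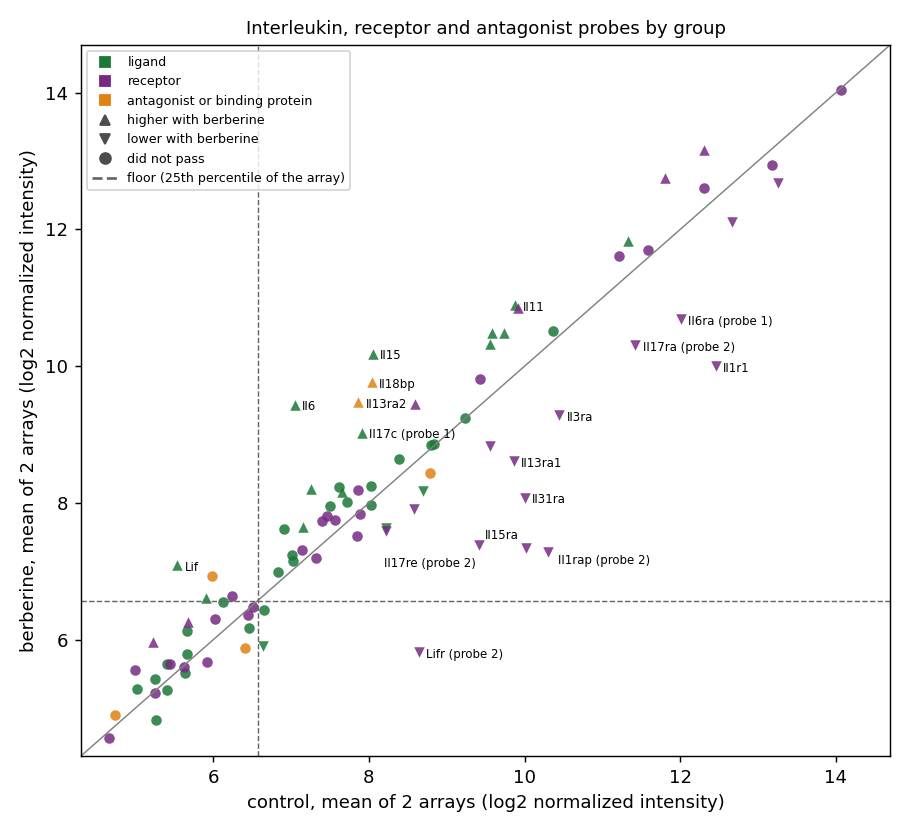
Mean log2 normalized intensity of the 92 member probes with berberine (vertical axis) and in control (horizontal axis), 2 arrays each, with the floor dashed and the diagonal marking no change. Colours give the role and marker shapes the call; ligands such as Il6 and Il15 lie above the diagonal and receptor chains such as Il1r1 and Il15ra below it.

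Over all 92 members, 21 probes were higher and 18 lower, together 42.4%, which is near the 44.8% called among all fitted probes (27.1% higher and 17.7% lower). Without berberine replicate 1 the counts were 3 and 8, and without berberine replicate 2 they were 3 and 9. At least a 2-fold change in addition left 7 higher and 10 lower, against 10.8% and 11.1% of all fitted probes. All 7 of these rises were at ligands, binding proteins or a decoy receptor, and all 10 falls were at receptor chains. The falls at Il1rap, Il17ra, Lifr and Il17re were at a probe other than the brightest, which did not fall 2-fold. With only the brightest probe of each gene, 7 were higher and 6 lower by this measure. Roles came from textbook knowledge, with the decoy receptor Il13ra2 counted apart from receptor chains, and the split was added after the data were seen. The probes of Lif and Ifnlr1 were above the floor only with berberine (2.17% of members, against 2.45% of all fitted probes). Only in control was the dimmer Lifr probe above it (1.09%, against 2.94%). Of the 26 named member probes that were called, 10 stayed called in the same direction under all 11 alternative settings. These were the probes of Il6, Il18bp, Il13ra2, Il1r1, Il15ra and Il13ra1, and 1 probe each of Il6ra, Il17re, Lifr and Il1rap. The matching share over all called probes is not given here. Whether the named members kept their calls more or less often than other probes is therefore not known.

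**Figure D2:**
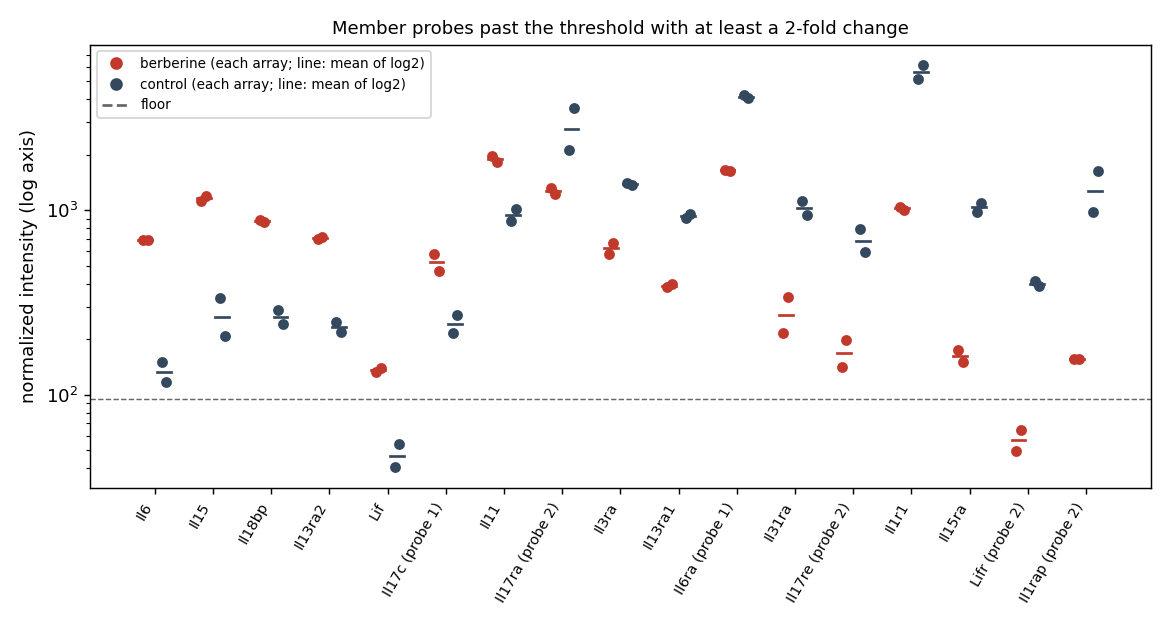
Normalized intensity (log axis) on each array for the 17 member probes past the threshold with at least a 2-fold change, berberine left of control within each gene, with lines at the mean of the log2 values. In every one of the 17 both berberine arrays lie on the same side of both control arrays. The probes were chosen by threshold and fold, so this separation is no added support. Il6 is at 690 and 691 with berberine and at 150 and 117 in control.

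Sequence upstream of 3 genes is given as examples of changes that held under every setting. They are a cytokine (Il6) and a decoy receptor (Il13ra2) that were higher and the signalling receptor Il1r1 that was lower. Other genes whose changes held, such as Il18bp (higher) and Il15ra (lower), are not shown. Each is the 250 bases before an annotated start in RefSeq (GRCm38.p6), on the gene's strand, and Il1r1 has 2 annotated starts. Il6 lies at chr5:30012864-30013113 (plus strand), Il13ra2 at chrX:147429193-147429442 (minus strand), and Il1r1 at chr1:40224830-40225079 and chr1:40266336-40266585 (plus strand). Capitals mark matches to 6 motifs searched on both strands, NF-kB (GGGA and TTCC with any 2 bases between), C/EBP (TTGNGCAA), AP-1 (TGANTCA), STAT (TTCNNNGAA), the cAMP response element (TGACGTCA) and the interferon-stimulated response element (GAAA and GAAA with any 2 bases between).
Il6: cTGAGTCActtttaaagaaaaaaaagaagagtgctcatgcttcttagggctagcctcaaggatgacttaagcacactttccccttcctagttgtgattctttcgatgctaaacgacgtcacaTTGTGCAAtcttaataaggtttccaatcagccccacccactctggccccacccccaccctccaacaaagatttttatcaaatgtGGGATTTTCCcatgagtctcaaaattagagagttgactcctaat
Il13ra2: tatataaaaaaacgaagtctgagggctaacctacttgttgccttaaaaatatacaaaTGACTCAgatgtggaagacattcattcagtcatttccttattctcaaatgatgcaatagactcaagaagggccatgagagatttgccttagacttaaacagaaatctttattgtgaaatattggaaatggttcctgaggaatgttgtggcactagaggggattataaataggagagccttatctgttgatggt
Il1r1 (first start): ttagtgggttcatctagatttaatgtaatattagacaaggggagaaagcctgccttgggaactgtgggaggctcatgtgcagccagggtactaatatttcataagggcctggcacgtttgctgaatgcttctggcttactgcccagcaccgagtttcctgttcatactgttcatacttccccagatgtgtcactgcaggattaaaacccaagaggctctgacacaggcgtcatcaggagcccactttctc
Il1r1 (second start): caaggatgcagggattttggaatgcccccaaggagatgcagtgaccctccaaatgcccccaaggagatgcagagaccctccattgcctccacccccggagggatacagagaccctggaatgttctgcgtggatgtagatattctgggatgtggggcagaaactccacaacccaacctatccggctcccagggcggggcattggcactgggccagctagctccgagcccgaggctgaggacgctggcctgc
The Il6 window held AP-1 letters (TGAGTCA, 249 to 243 bases before the start), C/EBP letters (TTGTGCAA, 128 to 121) and NF-kB letters (GGGATTTTCC, 44 to 35). In Il13ra2 the AP-1 letters TGACTCA stood 193 to 187 bases before the start, and neither window of Il1r1 held a match. Among all 32851 listed windows of this length, 1.21% held the NF-kB letters, 2.61% C/EBP, 6.75% AP-1, 7.02% STAT, 1.55% the cAMP response element and 2.98% the interferon-stimulated element. Of the 17 genes with a called change of at least 2-fold, 15 had a window listed, and AP-1 letters were also in those of Lif, Il11 and Il15ra, STAT letters in that of Il31ra and C/EBP letters in that of Il3ra. The other 8 listed genes, Il1r1 and Il18bp among them, held none of the 6 motifs. None of the matching motifs overlapped in these windows, and a match of letters is a description of the sequence only.

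Among ligands of the Il6 family, Il6, Lif and Il11 were higher with berberine. Il6, the cytokine that drives the acute-phase response, read 690 and 691 with berberine, against 150 and 117 in control. Both berberine arrays lay well above both control arrays, and the probe rose 5.20-fold (log2 change 2.38, SE 0.16, adjusted p = 0.000608). Its log2 change ranged from 1.88 to 2.47 over the alternatives. Lif, leukaemia inhibitory factor, was at 133 and 140 with berberine and at 40.3 and 53.7 in control. The control arrays were both under the floor, so the rise is given as at least 1.43-fold (adjusted p = 0.00262), and the call was lost without either berberine array (adjusted p = 0.0541 and 0.0645). Il11, a ligand that signals through gp130, read 1977 and 1817 with berberine, against 880 and 1012 in control. That rise of 2.01-fold (log2 change 1.01, SE 0.14, adjusted p = 0.00466) was lost in the deposited values (log2 change 0.52) and without either berberine array. Osm, oncostatin M, was at 1508 and 1405 with berberine and 1112 and 1559 in control, where the groups overlapped and the change did not pass (log2 change 0.14, adjusted p = 0.588). The Il27 probe, for a subunit of a heterodimeric cytokine, had an adjusted p of 0.960. Il31, a ligand known in itch, read under the floor on every array.

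After Il6, the largest log2 rise of a member probe was at Il15. Il15, which sustains natural killer and memory T cells and is also made by muscle and fat, read 1126 and 1202 with berberine, against 336 and 209 in control. All berberine values exceeded all control values, and the fold was 4.39 (log2 change 2.14, SE 0.25, adjusted p = 0.00278). The 2 control arrays differed more than the berberine arrays here, and the call was lost without berberine replicate 1 or 2 (adjusted p = 0.0595 and 0.0706), with log2 changes of 2.17 and 2.10. Its private receptor chain Il15ra, which presents the cytokine to neighbouring cells, moved the other way. Il15ra was at 175 and 150 with berberine and at 983 and 1100 in control, with no overlap, and fell 6.41-fold (log2 change -2.68, SE 0.15, adjusted p = 0.000326). That change ranged from -3.16 to -2.58 over the alternatives.

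Other ligand probes rose by less. Il17c, an epithelial cytokine of the Il17 family, read 581 and 471 at its brighter probe with berberine and 216 and 269 in control, a 2.17-fold rise (log2 change 1.12, SE 0.18, adjusted p = 0.00766). That call was lost in the deposited values (log2 change 0.55) and without berberine replicate 1, berberine replicate 2 or control replicate 1 (adjusted p = 0.0860, 0.0650 and 0.0513). The second Il17c probe missed the threshold at a log2 change of 0.23 (adjusted p = 0.351). Il33, a nuclear alarmin of stromal cells, was at 1500 and 1361 with berberine and at 929 and 627 in control. It rose 1.87-fold (adjusted p = 0.0266), with a log2 change of 0.90. The call was lost in 5 of 11 alternatives, in the deposited values (log2 change 0.35), on the 75th percentile (0.66) and without berberine replicate 1, berberine replicate 2 or control replicate 2 (adjusted p = 0.183, 0.152 and 0.0501). Il18, which is matured by caspase-1, read 3804 and 3520 with berberine and 2359 and 2798 in control (1.42-fold, adjusted p = 0.0420). It missed the threshold in the deposited values (log2 change 0.32), on the 75th percentile (adjusted p = 0.0553) and without berberine replicate 1, berberine replicate 2 or control replicate 1 (adjusted p = 0.230, 0.168 and 0.0779). The other ligand probes called higher above the floor were those of Il1f8 (an Il36 ligand), both subunits of IL-12 (Il12a and Il12b), Il5 and 1 of 3 for Il7, with log2 changes of 0.51 to 0.95. The 2 ligand probes called lower were Il34, a ligand of the Csf1 receptor, at -0.59, and Il23a, the subunit that sets Il23 apart from Il12, at -0.52.

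The classical inflammatory ligands of the Il1 family did not pass. Il1a read 269 and 237 with berberine and 266 and 257 in control (log2 change -0.05, adjusted p = 0.774). Il1b was at 425 and 504 with berberine and at 425 and 466 in control (log2 change 0.06, adjusted p = 0.783). At both genes the groups overlapped or met. Neither passed under any alternative run, with log2 changes of -0.58 to 0.04 for Il1a and -0.57 to 0.18 for Il1b. Il17f had the largest SE among ligand probes above the floor, at 545 and 167 with berberine and 231 and 168 in control (adjusted p = 0.430). The remaining ligand probes above the floor that did not pass, those of Il3, Il10, Il13, Il17a, Il17b, Il20, Il24 and Il7 (brighter probe), had log2 changes of 0.01 to 0.71.

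Among proteins that hold cytokines back, Il18bp and Il13ra2 were higher under every setting run. Il18bp, the secreted protein that binds and neutralizes Il18, read 883 and 861 with berberine and 287 and 241 in control. The groups were far apart, and the rise was 3.32-fold (log2 change 1.73, SE 0.14, adjusted p = 0.000996; 1.16 to 1.83 over the alternatives). Il13ra2, a decoy receptor that takes up Il13, was at 700 and 719 with berberine and at 249 and 219 in control. It rose 3.04-fold (log2 change 1.61, SE 0.13, adjusted p = 0.000994; 1.03 to 1.67 over the alternatives). Il1rn, the receptor antagonist of Il1, read 107 and 140 with berberine, against 31.8 and 125 in control. One control array was under the floor and the groups overlapped, and the change did not pass (log2 change 0.95, SE 0.66, adjusted p = 0.291), though it did without control replicate 2 (adjusted p = 0.0289). The Il1 decoy receptor Il1r2 had a log2 change of -0.35 and missed the threshold (adjusted p = 0.0989). The remaining members of this role, Il22ra2 and Il1f5, read under the floor on every array.

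**Figure D3:**
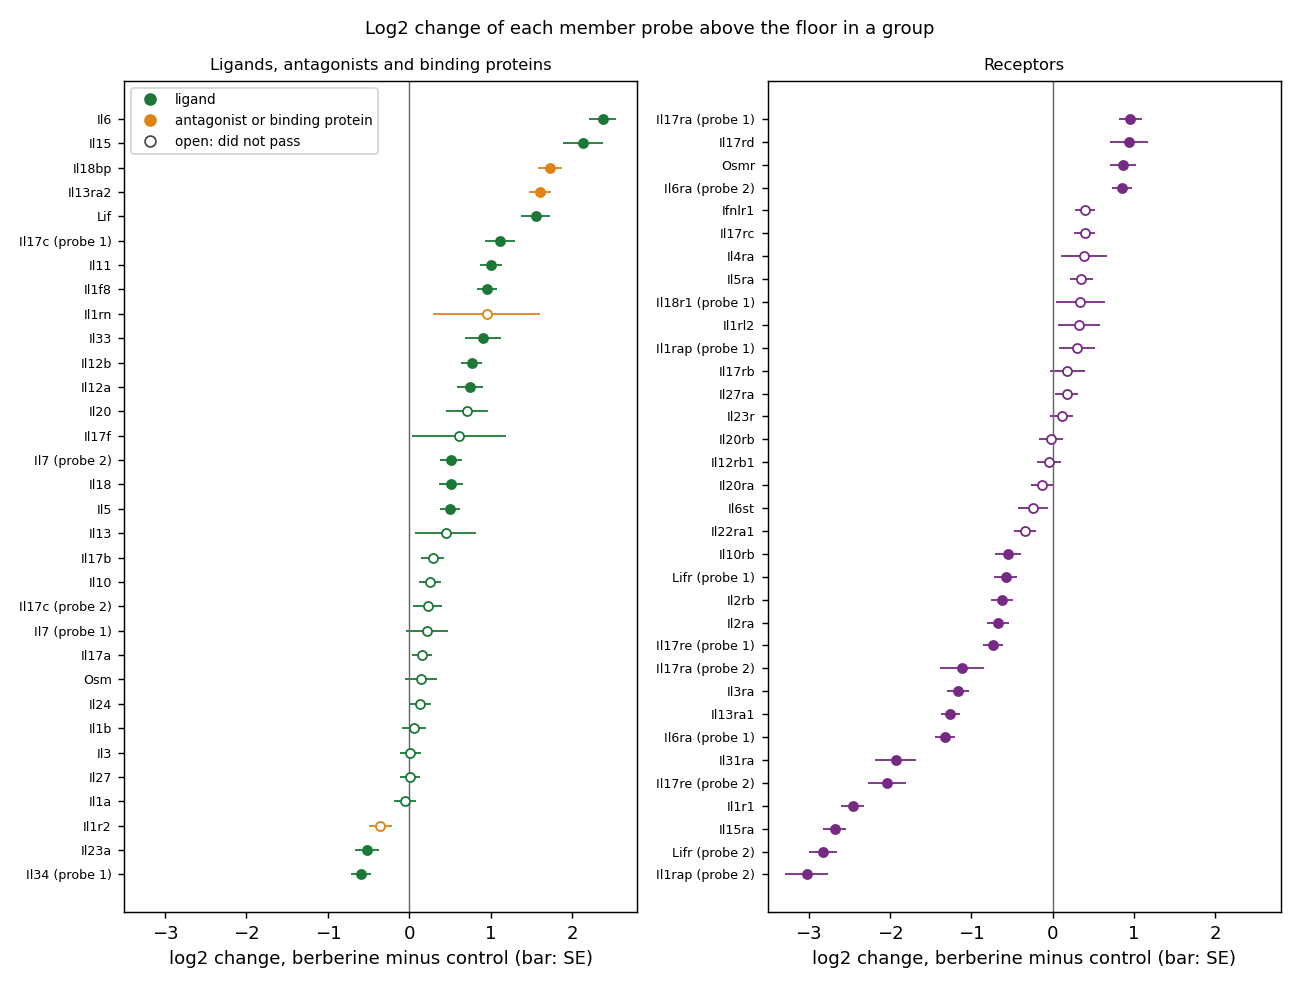
Log2 change (berberine minus control, with SE) of the 66 member probes above the floor in a group, ligands and binding proteins on the left and receptor chains on the right, open where the threshold was missed. Ligand points run up to 2.38 (Il6) and down to -0.59 (Il34), and receptor points from 0.95 (Il17ra, probe 1) down to -3.02 (Il1rap, probe 2).

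Signalling receptors of the Il1 family were lower at 2 probes. Il1r1, the receptor chain that binds Il1a and Il1b, read 1044 and 1003 with berberine and 5139 and 6158 in control. The fall was 5.50-fold (log2 change -2.46, SE 0.15, adjusted p = 0.000400), within -2.72 to -2.15 over the alternatives, and rests on a single probe. Its partner Il1rap gave no single answer. At one probe it was at 156 and 156 with berberine and at 981 and 1638 in control, and fell 8.11-fold (log2 change -3.02, SE 0.26, adjusted p = 0.00118). At the brighter probe it read 6892 and 5604 with berberine and 6017 and 4223 in control, so that the groups overlapped, and it missed the threshold (adjusted p = 0.320 at a log2 change of 0.30), though it passed as higher after centring (adjusted p = 0.0426). The third Il1rap probe was under the floor on all arrays, so its call gives no fold. Il1rl2, the Il36 receptor, and Il18r1 had log2 changes of 0.32 and 0.34 at their probes above the floor (adjusted p = 0.347 and 0.406), while Il18rap, the Il18 accessory chain, and Il1rapl2 were under it throughout. No probe for Il1rl1, the Il33 receptor, was analysed here.

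Receptors of the Il6 family moved both ways. Il6st, the shared gp130 chain, was at 8144 and 7645 with berberine and at 7994 and 10806 in control, with overlapping groups and no call (log2 change -0.24, SE 0.18, adjusted p = 0.345). Over the alternatives its log2 change ran from -0.46 to 0.44. Osmr, the chain that pairs with gp130 for oncostatin M, read 9195 and 9189 with berberine, against 4497 and 5649 in control. It rose 1.82-fold (log2 change 0.87, SE 0.16, adjusted p = 0.0108), a call lost without berberine replicate 1 or 2 (adjusted p = 0.103 and 0.107). Il31ra, which pairs with Osmr to form the Il31 receptor, was at 216 and 338 with berberine and at 1126 and 940 in control, so both berberine arrays were low. It fell 3.81-fold (log2 change -1.93, SE 0.25, adjusted p = 0.00384). With control replicate 1 left out the adjusted p was 0.0525. Lifr, the receptor of Lif, was lower at both probes. Its brighter probe read 6796 and 6265 with berberine and 9055 and 10479 in control (1.49-fold, adjusted p = 0.0263). The call was lost in all 3 other scalings and without berberine replicate 1, berberine replicate 2 or control replicate 2 (adjusted p = 0.129, 0.167 and 0.0675), and the change turned to 0.10 on log2 after centring. Its dimmer probe was at 49.5 and 64.5 with berberine, under the floor, and at 412 and 388 in control, a fall of at least 4.21-fold (adjusted p = 0.000438).

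Il6ra, the chain that gives cells a direct response to Il6, was called in opposite directions at its probes. The brighter one read 1660 and 1640 with berberine and 4206 and 4055 in control, so it fell 2.50-fold (log2 change -1.32, SE 0.12, adjusted p = 0.00127). The dimmer one read 713 and 685 with berberine and 391 and 384 in control, a 1.80-fold rise (log2 change 0.85, SE 0.12, adjusted p = 0.00480). This rise did not pass in the deposited values (log2 change 0.24), on the 75th percentile (0.54) or without berberine replicate 1 or 2 (adjusted p = 0.0685 and 0.0662), while the fall at the brighter probe kept its call in all 11 alternatives. No direction can therefore be given for the gene. Il27ra, the Il27 receptor chain, missed the threshold (log2 change 0.17, adjusted p = 0.360).

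Chains that take part in binding Il13, Il3, Il2 or Il10 were next. Il13ra1, which forms the Il13 receptor together with Il4ra, was at 384 and 397 with berberine and at 912 and 953 in control, and fell 2.39-fold (log2 change -1.26, SE 0.12, adjusted p = 0.00152). Il4ra read 893 and 907 with berberine and 521 and 913 in control, with overlapping groups and no call (log2 change 0.38, adjusted p = 0.323), and passed as higher without control replicate 2 (log2 change 0.80, adjusted p = 0.0250). Il3ra, the Il3-binding chain, read 582 and 667 with berberine and 1410 and 1380 in control (2.24-fold lower, log2 change -1.16, SE 0.13, adjusted p = 0.00263), a call that was just missed without berberine replicate 1 (adjusted p = 0.0507). Il2ra and Il2rb, chains of the Il2 receptor, were lower by smaller amounts, with log2 changes of -0.67 and -0.63. The chain they share with other lymphoid cytokine receptors, Il2rg, was under the floor on every array. Il10rb, a widely expressed chain of the Il10 family receptors, was at 4699 and 4160 with berberine and at 5844 and 7162 in control. Its 1.46-fold fall (adjusted p = 0.0447) was lost in all 3 other scalings and without berberine replicate 1, berberine replicate 2 or control replicate 2 (adjusted p = 0.157, 0.241 and 0.115), and turned to 0.031 on log2 after centring.

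Receptors of the Il17 family held both directions too. Il17re, the receptor of Il17c, fell at both probes. Its dimmer probe read 142 and 198 with berberine and 794 and 591 in control, so it fell 4.09-fold (log2 change -2.03, SE 0.24, adjusted p = 0.00271). Its brighter probe read 447 and 461 with berberine and 791 and 724 in control, and fell 1.67-fold (log2 change -0.74, adjusted p = 0.00869), a call lost without berberine replicate 1 or 2 (adjusted p = 0.0906 and 0.0864). Il17ra, the chain common to the family, rose at its brighter probe, which read 7034 and 6810 with berberine and 3293 and 3883 in control (1.94-fold, adjusted p = 0.00563). At the other probe it fell, with 1315 and 1220 with berberine and 2111 and 3572 in control (2.17-fold, adjusted p = 0.0264). Both calls were lost without either berberine array, and the gene has no settled direction. Il17rd, known also as an inhibitor of fibroblast growth factor signalling, was at 1912 and 1778 with berberine and at 1201 and 772 in control, a 1.91-fold rise (adjusted p = 0.0297). Il17rc and Il17rb did not pass (log2 change 0.39 and 0.18).

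Of the 10 member genes with several probes, 7 had at least 2 above the floor. Their probes were called alike for Lifr and Il17re, in opposite directions for Il6ra and Il17ra, and at 1 probe and not at another for Il1rap, Il17c and Il7. Among all 1691 genes with at least 2 probes above the floor, 255 (15.1%) had probes called in opposite directions. The largest gap above the floor was at Il1rap, from 0.30 to -3.02. The other 70 member genes, Il6, Il15, Il1r1 and Il15ra among them, had 1 probe each, so no second probe was there to compare.

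**Figure D4:**
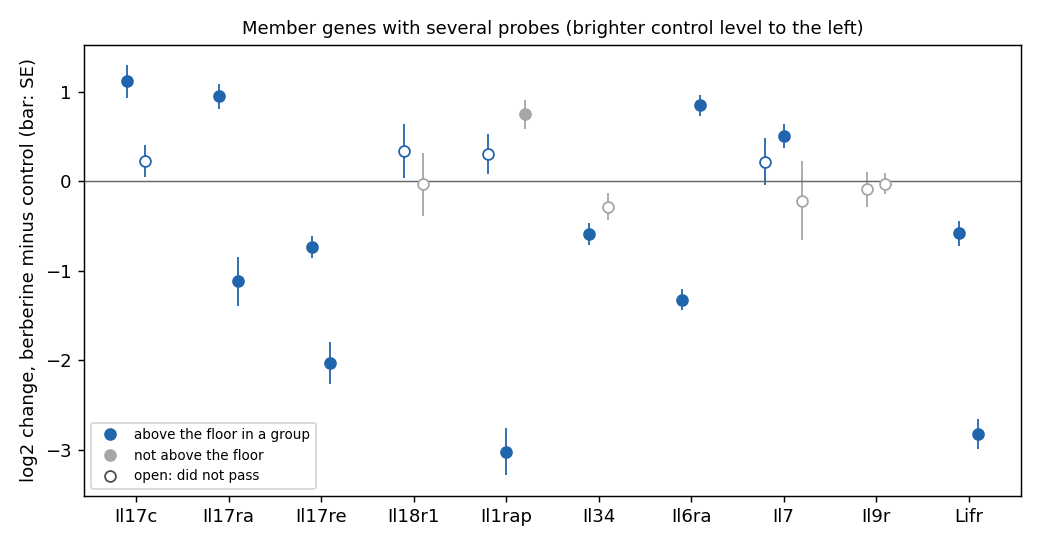
Log2 change (berberine minus control, with SE) of each probe of the 10 member genes with several probes, the probe with the brighter control level to the left, grey where not above the floor and open where the threshold was missed. Il6ra and Il17ra have filled points on both sides of 0, and the points of Lifr and Il17re lie below it.

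Among the receptors above the floor that did not pass, Il20rb and Il23r were bright on all arrays. Il20rb, a chain of the Il20 receptor, read 17486 and 16251 with berberine and 18712 and 15659 in control (adjusted p = 0.916). Il23r, the Il23-binding chain, read 3347 and 3293 with berberine and 2805 and 3367 in control (adjusted p = 0.568). In both the groups overlapped. Ifnlr1, listed by the platform under its older interleukin receptor symbol, and Il5ra, Il12rb1, Il20ra and Il22ra1 had log2 changes of -0.34 to 0.40.

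The 26 probes not above the floor on both arrays of a group give little information. On no array above it were the 21 probes of Il4, Il9, Il19, Il21, Il25, Il31, Il1f5, Il1f6, Il1f9, Il2rg, Il10ra, Il12rb2, Il18rap, Il1rapl2, Il21r, Il22ra2 and Il9r (2 probes), with a further probe each of Il18r1, Il34 and Il1rap. Most of these ligands are known as products of T cells, mast cells or epithelium. Il7 (dimmest probe), Il7r, Il16, Il17d and Il1f10 were above it on some arrays only. Of the 26, the probes of Il10ra, Il16 and Il1rap were called higher and that of Il17d lower, with values so near the floor that no fold beyond 1.05 could be assigned.

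Signalling genes downstream of these receptors were described from lists chosen with earlier results of these data known, with 1 probe per gene, where 48.2% of all genes were called (30% higher, 18.2% lower). In the gp130 and JAK-STAT list 4 of 28 measured genes were higher and 11 lower (53.6% called; median log2 change -0.15). Stat3, the main STAT of the Il6 family, fell 3.72-fold, the kinase Jak3 3.79-fold, the SUMO ligase Pias4 8.33-fold and Stat5a at least 17.9-fold (adjusted p from 0.000131 to 0.00102). Socs4, of the SOCS family of signalling inhibitors, rose 6.43-fold (log2 change 2.68; 1.26 at its other probe, also called higher), and Sos1, a Ras exchange factor, 2.60-fold. Jak1, Jak2 and Socs3 of that list did not pass (log2 changes -0.31, -0.40 and -0.12). In the transducer list for the receptors of Il1, Il17 and Il33, 14 of 28 genes were higher and 5 lower (67.9% called, median 0.58). Both lists hold inhibitors as well as activators, so these counts give no direction of signalling. Socs3 and Nfkbiz are also among the cytokine-induced genes below. Map3k7, the kinase TAK1, rose 6.13-fold, the NF-kB cofactor Nfkbiz 3.15-fold, the adaptor Traf3 2.94-fold and Ikbkg, the regulatory subunit of the IkB kinase, 2.92-fold. Ecsit, a Traf6-binding protein, fell 6.99-fold, the IkB kinase subunit Chuk 4.76-fold and the inhibitor Nfkbia 3.99-fold. Without berberine replicate 1 or 2 the numbers called were 8 and 8 in the JAK-STAT list and 7 and 6 in the transducer list.

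Genes known to be induced by cytokines of the Il1 or Il6 family split, with 11 of 30 higher and 9 lower (66.7% called; median log2 change 0.00). Ptgs2, the inducible cyclooxygenase, rose 8.85-fold (log2 change 3.15, adjusted p = 0.000306), the collagenase Mmp13 3.85-fold and the acute-phase gene Saa3 2.35-fold. Steap4, a metalloreductase of adipocytes, fell 9.19-fold, the haptoglobin gene Hp 8.49-fold, Serpina3n at least 6.11-fold and the chemokine Ccl2 5.49-fold. Hp and Steap4 are known to be high in adipocytes as well as after cytokines, and adipocyte markers fell in these samples as given below. Whether the falls of these genes and of the markers are linked was not tested. In the list of partner chains and ligands without an interleukin symbol 6 of 25 were higher and 4 lower (40% called; median 0.01), with Ifnlr1 both in it and among the members. Csf2ra rose 3.79-fold, Adam17, a protease that sheds cytokine receptors, 2.71-fold and Casp1, which matures Il1b and Il18, 2.41-fold. Ifngr1, an interferon gamma receptor chain, fell 12.5-fold, Crlf3 8.54-fold, the tumour necrosis factor receptor Tnfrsf1a 2.07-fold and Csf2rb 2.09-fold, with 1 of its 2 berberine arrays under the floor and a second probe that did not pass (log2 change -0.29). Of the 27 list genes named here that are not members, 18 kept their call under all alternatives run. In the deposited values Ikbkg, Sos1, Casp1 and Saa3 missed the threshold, with log2 changes of 0.98, 0.80, 0.78 and 0.76 (1.55, 1.38, 1.27 and 1.24 after normalization). Tnfrsf1a lost its call after centring (log2 change -0.29, against -1.05), on the 75th percentile (-0.55) and without either berberine array. Nfkbiz, Ikbkg, Casp1 and Csf2rb lost theirs without either berberine array, Adam17, Map3k7 and Saa3 without berberine replicate 2, and Csf2rb also without control replicate 2 (adjusted p = 0.0539 to 0.144 over these). In these 2 lists 8 and 6 and then 4 and 3 genes were called without berberine replicate 1 and 2.

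**Figure D5:**
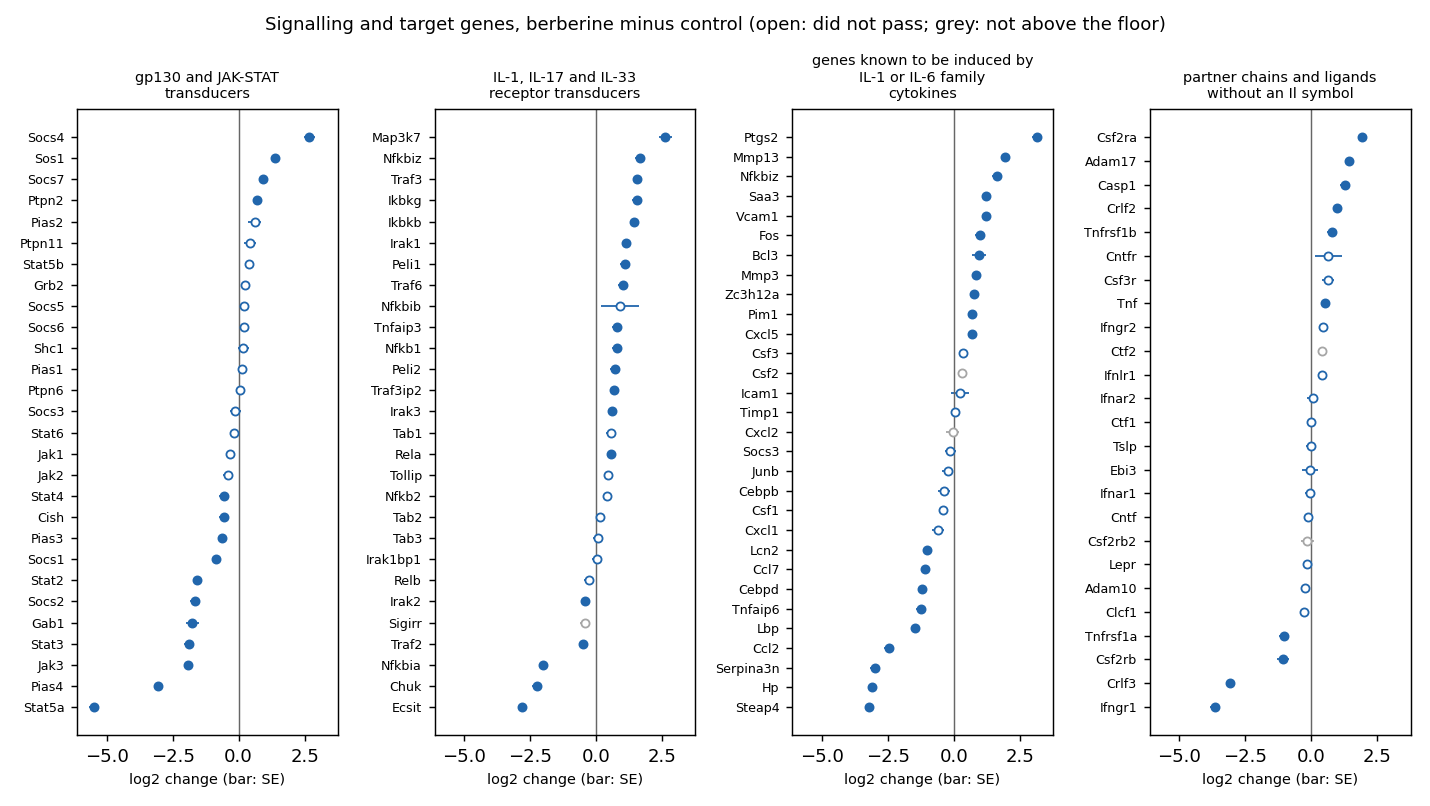
Log2 change (berberine minus control, with SE) of the measured genes of the 4 lists of signalling, target and partner genes, 1 probe per gene, open where the threshold was missed and grey where not above the floor. The JAK-STAT list has 11 filled points below 0 and 4 above, and the Il1, Il17 and Il33 transducer list 5 below and 14 above.

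Markers of adipocytes and of preadipocytes and fibroblasts were called more often than genes at large, and their part in the interleukin results was not tested. With 1 probe per gene, 48.2% of all genes were called (30% higher, 18.2% lower). The share was 87.5% for adipocyte and 100% for preadipocyte and fibroblast markers. It was 37.5% for macrophage and monocyte, 14.3% for lymphocyte and mast cell and 40% for endothelial markers. Of 8 adipocyte markers 6 fell and 1 rose, and their summed intensity was 31563 and 33604 with berberine and 582524 and 557386 in control. In bulk samples fewer cells of a type and less RNA per cell cannot be told apart. All 7 measured preadipocyte and fibroblast markers were called, 4 higher and 3 lower, with sums of 141558 and 135612 with berberine and 166537 and 146262 in control. Of 8 macrophage and monocyte markers 1 rose and 2 fell, among them Cd14 (3.92-fold), with sums of 3892 and 3813 with berberine and 11753 and 10553 in control, and the defining markers Adgre1 and Fcgr1 were under the floor on all arrays. Of 7 lymphocyte and mast cell markers 1 (Cd3e, 1.38-fold) rose and 0 fell, and Nkg7 and Ms4a1 were under the floor on all arrays. Their sums were 8643 and 9437 with berberine and 6630 and 6430 in control. Most of each sum was the single Cd3e probe, at 7496 and 7479 with berberine and 5169 and 5673 in control. Of 5 endothelial markers 2 rose and 0 fell, with sums of 1351 and 1273 with berberine and 927 and 979 in control.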

How the data were processed

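Each of the 4 samples was hybridised on its own 1-colour array, with Cy5 as the dye, per the labels. The treatment text is the same for all samples and names berberine for controls too, so groups were taken from the titles. The authors deposited 1 linear intensity per probe and array. How these were scanned, background-corrected or scaled is not given in the sources used here, and the zero of their scale is not known. Median deposited intensities were 237 and 280 on the berberine arrays and 423 and 350 on the control arrays, and log2 intensities were therefore quantile-normalized and fitted with limma 3.58.1 (R 4.3.3; lmFit, eBayes, Benjamini-Hochberg over 26408 probes). The 15 probes at or under 0 were left out. Precision is limited by 2 arrays per group: an exact permutation test over arrays has a smallest two-sided p of 0.33, and p-values here rest on limma's pooled spread (2 residual and 2.89 prior degrees of freedom). Above log2 10 in control, the median difference between arrays of a group was 0.088 for berberine and 0.26 for control.

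Platform symbols were updated through RefSeq (91 member probes by current symbol, 1 by an older one). Where the dimmer group lay under the floor on both arrays, a fold is "at least", the brighter mean over the floor. Named probes were the members called with at least a 2-fold change, a set of fixed genes and all their probes, and up to 4 list genes in each direction. Of the fixed genes Il11ra1 and Il1rl1 had no probe here. Genes such as Il18bp were grouped by role from textbook knowledge. Members and lists were chosen with earlier results of these data known. The fit was tested on simulated data with far fewer changed probes than were called here, so that test does not bear on the choice of scaling. Replicate numbers in the labels name no shared culture, and deviations of same-numbered arrays correlated at 0.0035 across probes, so no pairing was used. Alternatives were other scalings, a replicate block, an intensity trend with robust prior, log2(value + 16), a filter on dim probes and leaving out each array.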

Additional observations from a re-analysis of the deposited data

How the results depend on the processing

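Counts of calls moved with the scaling and with the berberine arrays. Of the interleukin probes, 21 were called higher and 18 lower. Without normalization 7 were higher in the deposited values, with median centring 33, and with 75th percentile scaling 13, and at least a 2-fold change left 7 higher and 10 lower. With 1 array left out at a time, 3 to 22 were higher and 8 to 16 lower. Calls opposite to those of the full set numbered 0 under each setting run. Among all probes, 2396 were higher in the deposited values, and 1218 to 6545 higher and 2128 to 4242 lower with an array left out. Ligand probes called higher numbered 3 in the deposited values, 6 on the 75th percentile and 1 to 10 with an array left out (0 to 2 lower). Receptor probes called higher numbered 9 after centring, 2 each in the deposited values and on the 75th percentile, and 0 to 7 with an array left out (8 to 13 lower). The split by role was added after the data were seen. The median log2 change of members above the floor was 0.20, and it was 0.36 after centring, -0.20 in the deposited values, 0.10 on the 75th percentile and 0.066 to 0.26 with an array left out. With an array left out, 6 to 18 transducers of Il1, Il17 and Il33, 6 to 21 cytokine-induced genes (13 in the deposited values), 8 to 18 JAK-STAT genes and 3 to 11 partner genes were called. With the median of the array as floor, 41 member probes were above it, against 66. The cause of these moves was not tested, beyond the fewer samples when an array is left out, where the lone array is assumed to vary like the other group.

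With the replicate block 25 interleukin probes were higher and 19 lower, which included all 39 calls of the fit without it, and Il1rn passed (adjusted p = 0.00761). After centring, Lifr (brighter probe) and Il10rb turned to 0.10 and 0.031 on log2, and neither passed. Over the 61 probes named from members and lists, the settings gave 68 losses and 4 gains of a call. A further 2 values were reversals, both at probes called in the full fit. The other 596 values kept their side of the threshold. Among these, called probes kept their direction, while some that were not called changed sign. Il1b, for one, went from 0.06 to -0.57 in the deposited values, and Osm from 0.14 to -0.34. Calls of dim probes are limited by signal near the floor.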
